A study of Homo sapiens with 12 samples.

Results

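A list of 43 interferon-stimulated genes was followed through AsPC-1 cells, an established cell line from a human pancreatic cancer, under low oxygen and after an siRNA against ARNT. The genes were found by pairing the Ensembl gene IDs of the deposited count files with symbols. All 43 matched 1 of the 57820 IDs listed, and all 43 passed the filter on low counts, among 16999 genes tested. Grouped by what their products do, they comprise 4 transcription factors of interferon signalling, 2 cytosolic RNA sensors and helicases, 4 IFIT, 3 IFITM, 4 OAS and 2 MX genes, 5 genes of ISG15 conjugation, 3 genes of the PARP and DTX3L group, 9 other antiviral effectors and 7 other induced genes.

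Interferon-stimulated genes are switched on when type I or type III interferon binds its receptor and the receptor kinases JAK1 and TYK2 phosphorylate STAT proteins. A complex of STAT proteins with IRF9 binds the interferon-stimulated response element (ISRE) of promoters, whereas STAT pairs without IRF9 bind the gamma-activated site (GAS). The products bind or degrade foreign RNA, hold up translation, block virus entry and release, and attach the ubiquitin-like protein ISG15 to other proteins; many are also made at a low level when no interferon has been added.

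The siRNA target ARNT encodes the protein with which the oxygen-regulated subunits of the hypoxia-inducible factors (HIF) must pair to bind DNA, and the aryl hydrocarbon receptor binds DNA with it too. There were 4 groups of 3 replicates (A, B and C). In normoxia siControl and normoxia siARNT, cells that had received a scrambled siRNA (siControl) or the ARNT siRNA (siARNT) stayed at 21% O2. In hypoxia siControl and hypoxia siARNT, cells transfected in the same way spent 24 h at 1% O2. All groups received a lipid transfection reagent, were split on the day after transfection, and were harvested 48 h after it; the labels name no added interferon. The labels name 1 cell line and 1 siARNT reagent, so a response to the loss of ARNT and a response to this siRNA itself cannot be told apart. Wells were seeded in triplicate, but nothing says that replicates were separate cultures, so p-values measure the spread between these samples, which may be technical.

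Total gene counts ran from 38.526 to 84.337 M per library, and 74.8% to 77.29% of the reads in a library were assigned to genes. ARNT (ENSG00000143437.16) fell with siARNT from 62.4 ± 1.53 to 13.4 ± 0.56 counts per M (CPM) in normoxia and from 69.1 ± 3.81 to 15.3 ± 1.04 CPM in hypoxia (SD, n = 3). Its log2 fold changes were -2.22 and -2.17 (SE 0.07 for both, adjusted p 8.99e-09 and 2.65e-09, edgeR's quasi-likelihood test). All 7 epithelial markers were measured, with sums of 6334 to 6878 CPM in normoxia siControl, 7106 to 9999 in normoxia siARNT, 6307 to 7158 in hypoxia siControl and 5913 to 7166 in hypoxia siARNT. The 3 markers of plasmacytoid dendritic cells, a main source of interferon in blood, were at or near 0, as were PTPRC, CD3E and CSF1R of the leukocyte list. LYZ (group means of 144 to 218 CPM) and LUM (381 to 578 CPM) made up most of the sums of the leukocyte and fibroblast lists, of which 5 of 7 and 4 of 5 markers stayed under 1 CPM in every library. The leukocyte list summed to 213.6 to 230.1 CPM in normoxia siControl, 165.2 to 189.3 in normoxia siARNT, 184.9 to 220.3 in hypoxia siControl and 130.5 to 159.1 in hypoxia siARNT. The fibroblast list summed to 401.7 to 455.4, 335.8 to 407.1, 567.4 to 593.3 and 366.5 to 468.6 CPM in the same order. The part of these differences in the results was not tested. One library stood apart: normoxia siARNT replicate B, in which the log2 count rose by 0.424 for each 10 points of gene GC content beyond the average library, against -0.205 to 0.238 in the other 11. Results that rest on it are given with and without it.

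To describe the promoters of the members, RefSeq windows (GRCh38.p14, from 250 bases before to 50 bases after a start) were searched on both strands for 3 patterns. These were GAAA, any 2 bases and GAAA for the ISRE, TTCNNNGAA for the GAS, and ACGTG or GCGTG for the hypoxia response element (HRE), of which GCGTG is also the core of the site of the aryl hydrocarbon receptor with ARNT. Windows were at hand for 35 of the 43 members. An ISRE match was present in 24 of the 35 (68.6%), against 4.4% of 27305 genes with a window. This share is no separate evidence for the list, whose genes are listed because they respond to interferon. The GAS pattern was present in 12 (34.3%, against 9.4%) and the HRE pattern in 14 (40.0%, against 52.4%). A match describes the letters only. The ISRE pattern takes exactly 2 bases between the GAAA repeats, so sites with another spacing are missed. The lack of a match therefore does not show that a promoter lacks an ISRE. Stretches of 100 bases around these matches are shown for members that the results below turn on, 5′ to 3′ along the gene, with the ISRE matches in capitals; where a gene has several starts, 1 with a match is shown. The first 5 genes were called higher with siARNT in at least 1 oxygen level; SAMD9 was called lower in both.
IFIT1, chr10:89392477-89392576 (plus strand): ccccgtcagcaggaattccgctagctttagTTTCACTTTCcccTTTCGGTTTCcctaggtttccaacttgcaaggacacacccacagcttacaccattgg
RSAD2, chr2:6877602-6877701 (plus strand): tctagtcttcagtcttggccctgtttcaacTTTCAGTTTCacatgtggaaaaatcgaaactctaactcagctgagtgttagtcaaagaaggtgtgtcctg
HERC5, chr4:88456964-88457063 (plus strand): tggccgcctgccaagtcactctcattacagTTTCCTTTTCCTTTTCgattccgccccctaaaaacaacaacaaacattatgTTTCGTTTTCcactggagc
OAS3, chr12:112938301-112938400 (plus strand): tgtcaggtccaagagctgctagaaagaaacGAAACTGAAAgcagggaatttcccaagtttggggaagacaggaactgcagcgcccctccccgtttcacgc
ISG15, chr1:1013354-1013453 (plus strand): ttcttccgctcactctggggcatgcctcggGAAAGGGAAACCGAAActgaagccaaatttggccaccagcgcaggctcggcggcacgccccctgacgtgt
SAMD9, chr7:93118046-93118145 (minus strand): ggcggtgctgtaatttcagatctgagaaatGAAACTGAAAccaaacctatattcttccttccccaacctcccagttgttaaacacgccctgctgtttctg
In the windows of OAS1 and IRF9, which rose in hypoxia siControl and were lower with siARNT in hypoxia, no match to this ISRE pattern was found. Sites with another spacing were not searched for. STAT2 was called in the same directions, and its window held neither an ISRE nor a GAS match. IRF1, IFI35 and SP110 held the GAS pattern without an ISRE match and were called in no comparison. The window of IFI35 did hold GAAA, 1 base and GAAA, which the ISRE pattern passes over. For OAS1 and IRF9, the capitals mark the GAS pattern.
OAS1, chr12:112906754-112906853 (plus strand): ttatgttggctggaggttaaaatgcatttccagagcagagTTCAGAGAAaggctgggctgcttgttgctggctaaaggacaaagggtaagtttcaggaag
IRF9, chr14:24161162-24161261 (plus strand): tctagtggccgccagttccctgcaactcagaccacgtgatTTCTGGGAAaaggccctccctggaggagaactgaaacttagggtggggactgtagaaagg
Of the 9 members with a window among those called higher with siARNT in both oxygen levels, 8 held an ISRE match and 1 a GAS match. Of the 7 called lower with siARNT in hypoxia, all with a window, 3 held an ISRE match and 4 a GAS match. EPSTI1 and PARP14 held both. Of these 7 calls, only those of OAS1 and SAMD9 held under every alternative run, and the difference between the sets was not tested. The HRE pattern was in 5 of the 9 and in 3 of the 7.

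**Figure D1:**
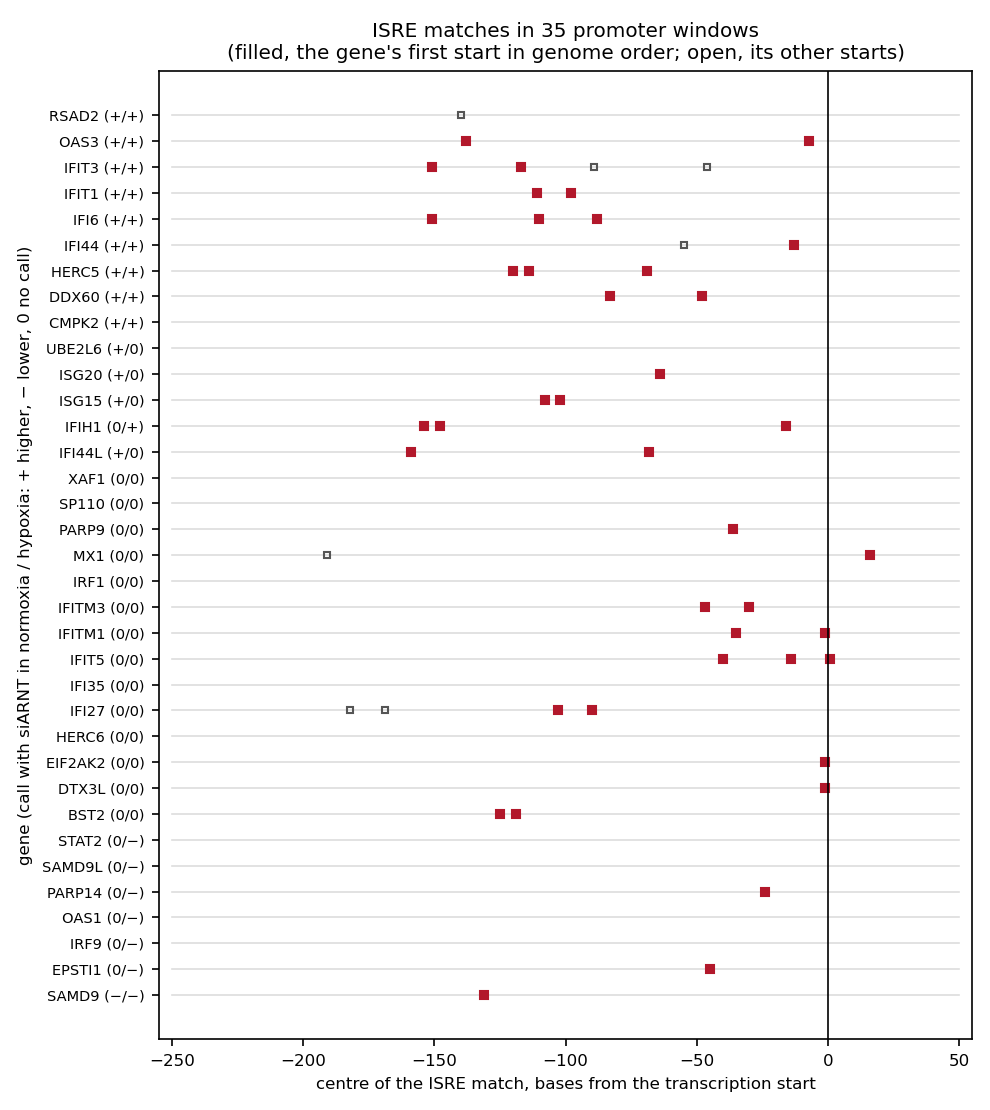
Position of each ISRE match (horizontal axis, bases from the transcription start to the centre of the match) in the promoter windows of 35 members (rows); filled squares belong to a gene's first start in genome order and open squares to its other starts. Of the 35 members, 24 hold a match, most of them upstream of the start, and 11 rows are empty.

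Transfection with siARNT went with higher levels of a large share of the interferon-stimulated genes at both oxygen levels. In normoxia, 17 of the 43 were called (adjusted p under 0.05), 16 higher and 1 lower, which is 39.5% of the list; 20.2% of all genes tested were called in this comparison, 9.42% higher and 10.8% lower. In hypoxia, 20 were called, 13 higher and 7 lower, or 46.5% of the list against 29.1% of all genes (14.4% higher, 14.7% lower); scaled by total counts, where the median of all genes moved to 0.10, the hypoxia calls were 13 higher and 4 lower. The median log2 fold change of the list was 0.41 in normoxia and 0.22 in hypoxia, where the medians of all genes were 0.01 and 0.02, and 31 of the 43 were above 0 in each. The 3 siARNT libraries did not overlap the 3 siControl libraries in 30 members in normoxia and 22 in hypoxia, against 46.5% and 40.3% of all genes. In bulk RNA, more cells that express a gene and more RNA per cell cannot be told apart. Leaving out hypoxia siControl replicate A lowered the hypoxia median to 0.14, and leaving out normoxia siARNT replicate B lowered the normoxia median to 0.28 with 14 members called, all higher.

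The same 12 members were called higher with siARNT in both oxygen levels: IFIT1, IFIT2, IFIT3, OAS2, OAS3, OASL, HERC5, RSAD2, CMPK2, IFI44, IFI6 and DDX60. They are 75.0% of the 16 that rose in normoxia and 92.3% of the 13 that rose in hypoxia. The same shares over all genes were not computed, so these shares do not set the list apart from other genes. The 2 comparisons contrast no library in common, but they are not independent. Both use the filter and the estimate of the spread from all 12 libraries. Normoxia and hypoxia samples of 1 siRNA may also stem from the same transfected wells. Called higher in normoxia only were ISG15, UBE2L6, ISG20 and IFI44L, and in hypoxia only IFIH1, which with an offset for GC content was called in normoxia as well. The difference between the oxygen levels was not called for any of these 17 genes in the interaction, the siARNT response in hypoxia minus that in normoxia.

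**Figure D2:**
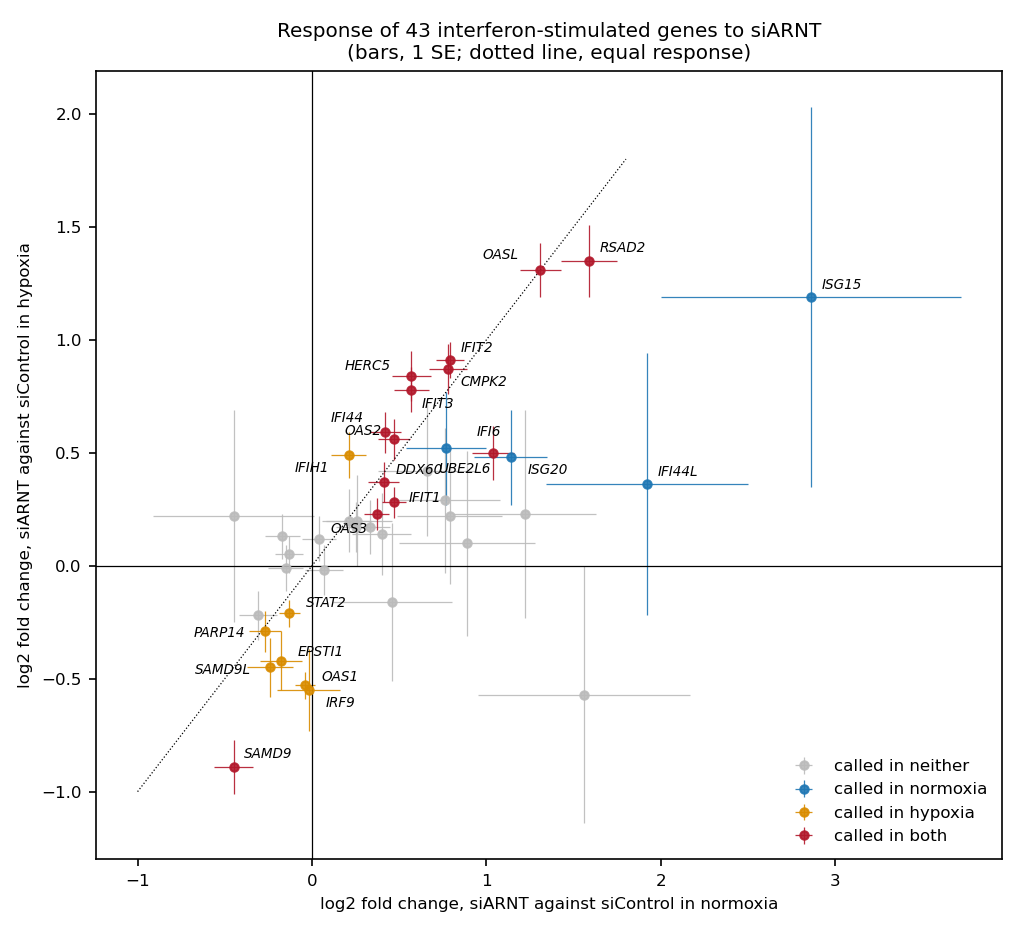
Log2 fold change of siARNT against siControl in normoxia (horizontal axis) and in hypoxia (vertical axis) for the 43 genes, with bars of 1 SE, coloured by where the gene was called. The 12 genes called higher in both lie in the upper right, and SAMD9 (-0.45 and -0.89) alone was called lower in both.

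Among the transcription factors, IRF9 and STAT2, which carry the interferon signal to DNA, rose in hypoxia siControl and were lower with siARNT in hypoxia. IRF9 (ENSG00000213928.4), the DNA-binding part of the complex, stood at 1.67, 1.66 and 1.43 CPM in replicates A, B and C of normoxia siControl and at 2.99, 3.01 and 2.83 CPM in hypoxia siControl. It thus rose in hypoxia without overlap (log2 fold change 0.89, SE 0.18, adjusted p 0.00335). With siARNT it stood at 1.25, 2.07 and 1.39 CPM in normoxia and 2.10, 1.73 and 2.19 CPM in hypoxia, and in hypoxia it was lower than with siControl (log2 fold change -0.55, SE 0.18, adjusted p 0.0362). STAT2 (ENSG00000170581.9), its signal-carrying partner, rose from 35.6, 37.8 and 38.1 CPM to 43.8, 42.3 and 44.6 CPM in hypoxia siControl (log2 fold change 0.23, adjusted p 0.0151). In hypoxia siARNT it stood at 37.2, 37.6 and 38.6 CPM, below hypoxia siControl (log2 fold change -0.21, adjusted p 0.0232). Both fell with siARNT in hypoxia without overlap between the groups, where 13 members of the list were called higher and 7 lower. These falls were near the threshold. That of IRF9 was lost without normoxia siControl B (adjusted p 0.0507), without hypoxia siControl A, B or C (0.0865, 0.0669 and 0.0529) and without hypoxia siARNT A or B (0.0582 and 0.137); that of STAT2 without hypoxia siControl A or C (0.0762 and 0.0705) or hypoxia siARNT A or B (0.0689 and 0.076), and its rise in hypoxia without normoxia siControl A (0.0751) or hypoxia siControl A or C (0.059 and 0.0539). With total count scaling the fall of IRF9 had an adjusted p of 0.066, and that of STAT2 was -0.12 (adjusted p 0.147). The fall of STAT2 was also lost with no filter (0.16) and with only the samples compared (0.0767), and its rise with no filter (0.1).

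IRF1, which binds similar sites early in the response, had group means between 15.6 and 18.1 CPM and no call. IRF7, the factor that amplifies interferon production, was at 0.363, 0.547 and 0.520 CPM in normoxia siControl and 1.22, 2.34 and 1.01 CPM in hypoxia siControl. Those libraries did not overlap, but they scattered widely and the difference was not called (log2 fold change 1.69, SE 0.61, adjusted p 0.0652). With siARNT in normoxia IRF7 read 0.643, 2.58 and 0.981 CPM, with replicate B the highest.

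Both RNA helicases of the list were higher with siARNT in hypoxia. DDX60 (ENSG00000137628.12), a helicase that aids RNA sensing, stood at 237, 216 and 234 CPM in normoxia siControl, 314, 278 and 321 in normoxia siARNT, 305, 269.7 and 306 in hypoxia siControl and 427, 363 and 348 in hypoxia siARNT. The highest libraries were those that had both hypoxia and siARNT. Its log2 fold change was 0.36 for hypoxia in siControl (adjusted p 0.01), 0.41 for siARNT in normoxia (0.00767) and 0.37 for siARNT in hypoxia (0.00778), while 0.32 for hypoxia within siARNT was not called (0.0667). With an offset for GC content the normoxia siARNT value was 0.63. IFIH1 (ENSG00000115267.5), the sensor MDA5 of long double-stranded RNA, read 10.3, 8.91 and 12.0 CPM in hypoxia siControl and 15.5, 14.4 and 13.8 CPM in hypoxia siARNT. The groups were apart there (log2 fold change 0.49, SE 0.10, adjusted p 0.00381), while in normoxia the means of 12.5 and 14.4 CPM did not differ by a call (log2 fold change 0.21, adjusted p 0.153). With the GC offset IFIH1 was called in normoxia too (0.41, adjusted p 0.000997).

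The IFIT genes, whose products bind foreign RNA ends and hold up their translation, were mostly higher with siARNT: 3 of the 4, all but IFIT5, were called higher in each oxygen level. IFIT2 (ENSG00000119922.7) stood at 81.3, 80.6 and 83.1 CPM in normoxia siControl and 143, 138 and 142 CPM in normoxia siARNT. In hypoxia it read 74.8, 63.3 and 82.4 CPM with siControl and 144, 135 and 134 CPM with siARNT. All 6 siARNT libraries lay above all 6 siControl libraries, 1.72-fold in normoxia and 1.87-fold in hypoxia (log2 fold changes 0.79 and 0.91, SE 0.08, adjusted p 6.54e-05 and 7.93e-06). IFIT3 (ENSG00000119917.9) read 58.8, 58.6 and 59.1 CPM in normoxia siControl and 43.01, 36.8 and 51.5 CPM in hypoxia siControl, so that it fell in hypoxia (log2 fold change -0.43, SE 0.10, adjusted p 0.00682). With siARNT it read 88.2, 85.7 and 88.0 CPM in normoxia and 80.3, 72.7 and 73.2 CPM in hypoxia, above siControl in both (log2 fold changes 0.57 and 0.78, adjusted p 0.00217 and 9.98e-05).

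IFIT1 (ENSG00000185745.8) went from 42.7, 37.6 and 40.0 CPM to 56.3, 53.4 and 56.8 CPM with siARNT in normoxia, and from 46.3, 42.0 and 48.8 CPM to 56.6, 55.3 and 54.9 CPM in hypoxia. The groups did not overlap in either (log2 fold changes 0.47 and 0.28, adjusted p 0.000818 and 0.00846), and without hypoxia siControl B the second had an adjusted p of 0.0526. IFIT5, in the same gene cluster, was not called with siARNT (log2 fold changes 0.04 and 0.12, SE 0.10), but with the GC offset it was called higher in normoxia (0.24, adjusted p 0.0255). In siControl it fell in hypoxia from 17 ± 0.43 to 13.9 ± 0.873 CPM (SD, n = 3; adjusted p 0.0484), a call lost on leaving out any 1 of 9 libraries (adjusted p up to 0.162 without hypoxia siControl B) and with 5 other settings.

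**Figure D3:**
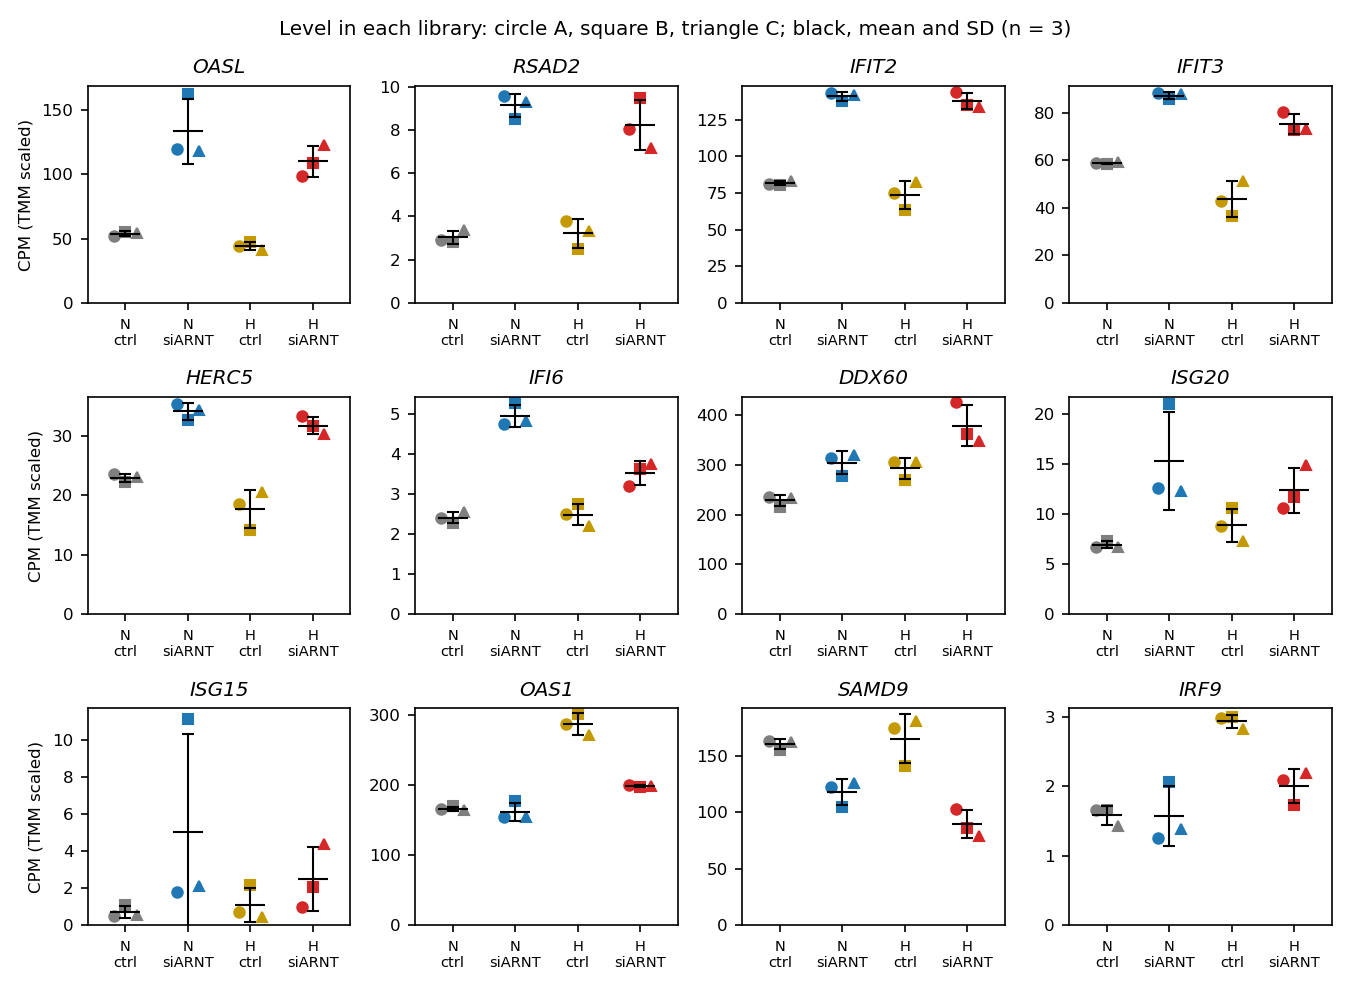
TMM-scaled CPM (vertical axes, from 0) of 12 genes in the 4 groups (horizontal axes: N, normoxia; H, hypoxia; ctrl, siControl), with each library as a point and the mean and SD of 3 replicates in black; the lower SD bar of ISG15 in normoxia siARNT is cut at 0. In OASL, RSAD2, IFIT2 and HERC5 every siARNT library lies above every siControl library, while OAS1 is highest in hypoxia siControl and SAMD9 lowest in hypoxia siARNT.

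The OAS genes split. OAS1, OAS2 and OAS3 make the oligoadenylates that activate RNase L, and OASL is a related protein without that activity that aids RNA sensing. With siARNT OASL, OAS2 and OAS3 were called higher in both oxygen levels, whereas OAS1 was not called in normoxia and was lower in hypoxia. OASL (ENSG00000135114.8) read 51.9, 55.5 and 54.1 CPM in normoxia siControl and 119.6, 162 and 118 CPM in normoxia siARNT. In hypoxia it read 44.0, 47.1 and 41.5 CPM with siControl and 98.5, 108 and 122 CPM with siARNT. That is 2.48-fold higher in normoxia and 2.48-fold higher in hypoxia (log2 fold change 1.31 in each, SE 0.12, adjusted p 2.95e-05 and 9.94e-06). OAS2 (ENSG00000111335.8) read 13.7, 12.7 and 13.1 CPM in normoxia siControl and 17.4, 19.6 and 17.6 CPM in normoxia siARNT, then 11.0, 10.5 and 12.5 and 16.1, 17.1 and 16.7 CPM in the 2 hypoxia groups. Neither pair overlapped (log2 fold changes 0.47 and 0.56, adjusted p 0.00363 and 0.000535). OAS3 (ENSG00000111331.8) rose by smaller amounts, from 69.3, 70.4 and 72.2 to 85.4, 102 and 85.3 CPM in normoxia and from 63.0, 66.3 and 66.9 to 72.8, 76.8 and 79.8 CPM in hypoxia (log2 fold changes 0.37 and 0.23, adjusted p 0.00557 and 0.0376). Without normoxia siARNT B the normoxia value was 0.26 and remained called (adjusted p 0.0112). The hypoxia call of OAS3 was lost on leaving out any 1 of 8 libraries, with an adjusted p of up to 0.137 (without hypoxia siControl A). It was also lost with no filter (0.0969).

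OAS1 (ENSG00000089127.8) was the 1 member for which the difference in the siARNT response between the oxygen levels was called. It stood at 166, 169.9 and 164 CPM in normoxia siControl and at 288, 303 and 272 CPM in hypoxia siControl, a 1.72-fold rise (log2 fold change 0.79, SE 0.06, adjusted p 6.67e-06). With siARNT it stood at 155, 177 and 154 CPM in normoxia and at 201, 197 and 199 CPM in hypoxia, a 1.23-fold rise (log2 fold change 0.30, adjusted p 0.0286). The 3 hypoxia siControl libraries were above all the others, and hypoxia siARNT lay between them and both normoxia groups. In hypoxia it was lower with siARNT (log2 fold change -0.53, SE 0.06, adjusted p 7.51e-05), and in normoxia it did not differ by a call (log2 fold change -0.04, adjusted p 0.657). The interaction was called (log2 fold change -0.49, SE 0.09, adjusted p 0.0113); 4.69% of all genes were called there, and OAS1 was the only member of 43. It remained called under all 20 alternatives run, with an adjusted p of 0.00015 to 0.0447. The smaller rise within siARNT was lost without normoxia siControl B (adjusted p 0.0542), normoxia siARNT A or C (0.0996 and 0.0885) or hypoxia siARNT A, B or C (0.0591, 0.091 and 0.0546). It was also lost with no filter (0.0536), the GC offset (0.0562), a block by transfected well (0.0701) and only the samples compared (0.16). OAS1, OAS3 and OAS2 are neighbours on the chromosome in the RefSeq annotation, and only OAS1 of the 3 rose in hypoxia siControl; the differences between the 3 genes were not tested.

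For the genes of ISG15 conjugation, all 5 fold changes with siARNT were above 0 at both oxygen levels, and 3 were called in normoxia and 1 in hypoxia. HERC5 (ENSG00000138646.4), the ligase that attaches ISG15 to new proteins, read 23.5, 22.1 and 23.1 CPM in normoxia siControl and 35.3, 32.6 and 34.3 CPM in normoxia siARNT. In hypoxia it read 18.5, 14.1 and 20.4 CPM with siControl and 33.2, 31.6 and 30.2 CPM with siARNT. It was higher with siARNT without overlap in both (log2 fold changes 0.57 and 0.84, SE 0.11, adjusted p 0.00427 and 0.000153). In siControl, HERC5 fell in hypoxia (log2 fold change -0.37, adjusted p 0.0273), a call that was lost without normoxia siControl A, B or C (adjusted p 0.106, 0.0516 and 0.1) or hypoxia siControl A or B (0.0595 and 0.0688, the log2 fold change without B being -0.22). ISG15 (ENSG00000187608.5), the modifier itself, read 0.497, 1.09 and 0.520 CPM in normoxia siControl and 1.78, 11.1 and 2.12 CPM in normoxia siARNT, where replicate B stood far above A and C. Its siARNT change in normoxia was called at 2.86 on the log2 scale (SE 0.86, adjusted p 0.0381). In hypoxia it scattered, at 0.679, 2.15 and 0.408 CPM with siControl and 0.983, 2.04 and 4.36 CPM with siARNT, and was not called (adjusted p 0.325). Without normoxia siARNT B the normoxia change was 1.5 and not called (adjusted p 0.156), and the call was also lost without normoxia siControl A, B or C (0.138, 0.0635 and 0.128), hypoxia siControl A (0.0514) or hypoxia siARNT B (0.0556). With no filter (0.147) and with only the samples compared (0.054), the call was lost as well. UBE2L6, the ISG15-conjugating enzyme, read 0.954, 0.962 and 0.798 CPM in normoxia siControl and 1.32, 2.14 and 1.20 CPM in normoxia siARNT (log2 fold change 0.77, adjusted p 0.0343), and without normoxia siARNT B its value was 0.47 (adjusted p 0.129), and 0.51 with the replicate block and GC offset. The call was also lost without normoxia siControl A, B or C (0.0937, 0.0673 and 0.128), without hypoxia siARNT B (0.0517) or with only the samples compared (0.0702). HERC6 and USP18, the protease that removes ISG15, had no call, with log2 fold changes of 0.25 and 0.33 in normoxia and 0.17 in both cases in hypoxia. With the GC offset both were called higher in normoxia (0.41 and 0.34, adjusted p 0.000541 and 0.0234).

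Among the other antiviral effectors, RSAD2 and its neighbour CMPK2 rose most clearly with siARNT. RSAD2 (ENSG00000134321.7), or viperin, an enzyme that makes a chain-ending nucleotide from CTP, read 2.92, 2.80 and 3.38 CPM in normoxia siControl and 9.58, 8.53 and 9.28 CPM in normoxia siARNT. In hypoxia it read 3.80, 2.49 and 3.35 CPM with siControl and 8.03, 9.49 and 7.18 CPM with siARNT. These are rises of 3.01-fold and 2.55-fold with no overlap (log2 fold changes 1.59 and 1.35, SE 0.16, adjusted p 5.5e-05 and 6.51e-05). CMPK2 (ENSG00000134326.7), a nucleotide kinase encoded next to RSAD2, went from 2.15, 2.38 and 2.25 to 3.96, 3.69 and 3.96 CPM in normoxia and from 1.86, 1.78 and 1.76 to 3.63, 3.02 and 3.19 CPM in hypoxia (log2 fold changes 0.78 and 0.87, adjusted p 0.000614 and 0.000133). Oxygen made no called difference to either gene within siControl (log2 fold changes 0.09 and -0.32, adjusted p 0.734 and 0.0535). ISG20 (ENSG00000172183.10), an RNA exonuclease, read 6.72, 7.33 and 6.70 CPM in normoxia siControl and 12.5, 20.9 and 12.3 CPM in normoxia siARNT, again with replicate B highest. It was called with B (log2 fold change 1.14, adjusted p 0.00384) and without B (0.83, adjusted p 0.00418). In hypoxia, the log2 fold change of ISG20 with siARNT was 0.48 (adjusted p 0.114).

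The paired genes SAMD9 and SAMD9L went the other way. Their products restrict poxviruses and slow translation and cell growth. SAMD9 (ENSG00000205413.3) read 163, 155 and 163 CPM in normoxia siControl and 123, 104 and 126 CPM in normoxia siARNT. In hypoxia it read 174, 141 and 181 CPM with siControl and 103, 85.9 and 79.0 CPM with siARNT. The siARNT libraries were below siControl in both, with the lowest values in hypoxia siARNT (log2 fold changes -0.45 and -0.89, SE 0.11 and 0.12, adjusted p 0.0194 and 0.000137). The fall in normoxia was lost without normoxia siControl A or C (adjusted p 0.0627 and 0.0642) or normoxia siARNT B (0.0579), and its value was -0.26 with an offset for GC content; the fall in hypoxia was called under all 20 alternatives. SAMD9L (ENSG00000177409.7), its neighbour, read 39.4, 30.4 and 46.4 CPM in hypoxia siControl and 30.2, 27.9 and 26.9 CPM in hypoxia siARNT (log2 fold change -0.45, adjusted p 0.0189). EPSTI1 (ENSG00000133106.10), an interferon-induced gene first described where epithelium meets stroma, read 8.49, 7.41 and 9.98 and 6.69, 6.30 and 6.28 CPM in the same groups (log2 fold change -0.42, adjusted p 0.024). For SAMD9L the call was lost without hypoxia siControl A or C (adjusted p 0.0638 and 0.082) or hypoxia siARNT B or C (0.0637 and 0.0587), and for EPSTI1 without the same 4 libraries (0.0667, 0.103, 0.0775 and 0.0629). Both calls were also lost with only the samples compared (adjusted p 0.0656 for each).

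PARP9 and DTX3L form a complex that modifies histones and ubiquitin, and PARP14 is a related ADP-ribosyltransferase. PARP9 (ENSG00000138496.12) fell in hypoxia siControl, from 29.03, 29.1 and 29.3 CPM to 22.03, 19.2 and 23.6 CPM, without overlap (log2 fold change -0.43, SE 0.10, adjusted p 0.00599). With siARNT it read 26.8, 23.1 and 27.6 CPM in normoxia and 25.6, 23.6 and 21.6 CPM in hypoxia, and neither siARNT comparison was called. DTX3L, which shares the promoter region of PARP9 on the other strand, had group means from 97 to 106 CPM and no call. PARP14 was lower with siARNT in hypoxia, at 139 ± 10.3 against 169 ± 23.2 CPM (SD, n = 3; log2 fold change -0.29, adjusted p 0.0332), although 1 of the siControl libraries lay within the siARNT range. That call was lost without hypoxia siControl A or C (adjusted p 0.117 and 0.135), hypoxia siARNT B or C (0.102 and 0.104) and with total count scaling (0.0651). Fitting only the samples compared lost it too (0.103).

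IFI6 (ENSG00000126709.10), a small membrane protein that limits virus replication at the endoplasmic reticulum, read 2.404, 2.27 and 2.54 CPM in normoxia siControl and 4.76, 5.27 and 4.83 CPM in normoxia siARNT. In hypoxia it read 2.49, 2.75 and 2.21 CPM with siControl and 3.19, 3.63 and 3.75 CPM with siARNT. Every siARNT library was above every siControl library, and the rise was 2.05-fold in normoxia and 1.42-fold in hypoxia (log2 fold changes 1.04 and 0.50, SE 0.12, adjusted p 0.000134 and 0.00741). The difference between these responses was -0.54 on the log2 scale (SE 0.17) and missed the threshold (adjusted p 0.0934). Within siARNT, IFI6 fell in hypoxia (log2 fold change -0.49, adjusted p 0.0395), but that call was lost when any library other than hypoxia siControl B or C was left out, with adjusted p from 0.0565 (without hypoxia siARNT C) to 0.165 (without hypoxia siARNT A). That call was also lost with total count scaling (0.0505), no filter (0.0971), a block by transfected well (0.106) and only the samples compared (0.175). IFI44 (ENSG00000137965.6), a GTPase-like protein, read 40.6, 39.5 and 39.9 CPM in normoxia siControl and 58.0, 49.4 and 53.0 CPM in normoxia siARNT, and 35.2, 29.8 and 36.6 and 55.6, 50.8 and 47.0 CPM in hypoxia (log2 fold changes 0.42 and 0.59, adjusted p 0.00803 and 0.000444). IFI44L, its neighbour, was near the detection limit, with 2 to 10 counts per library in normoxia siControl and 16 counts or fewer outside normoxia siARNT replicate A, which held 54. Its call in normoxia (log2 fold change 1.92, adjusted p 0.0388) changed to 1.10 (adjusted p 0.163) without that library, and was also lost without normoxia siControl A, B or C (0.0811, 0.0761 and 0.141), hypoxia siControl A or hypoxia siARNT B (0.0573 for both).

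**Figure D4:**
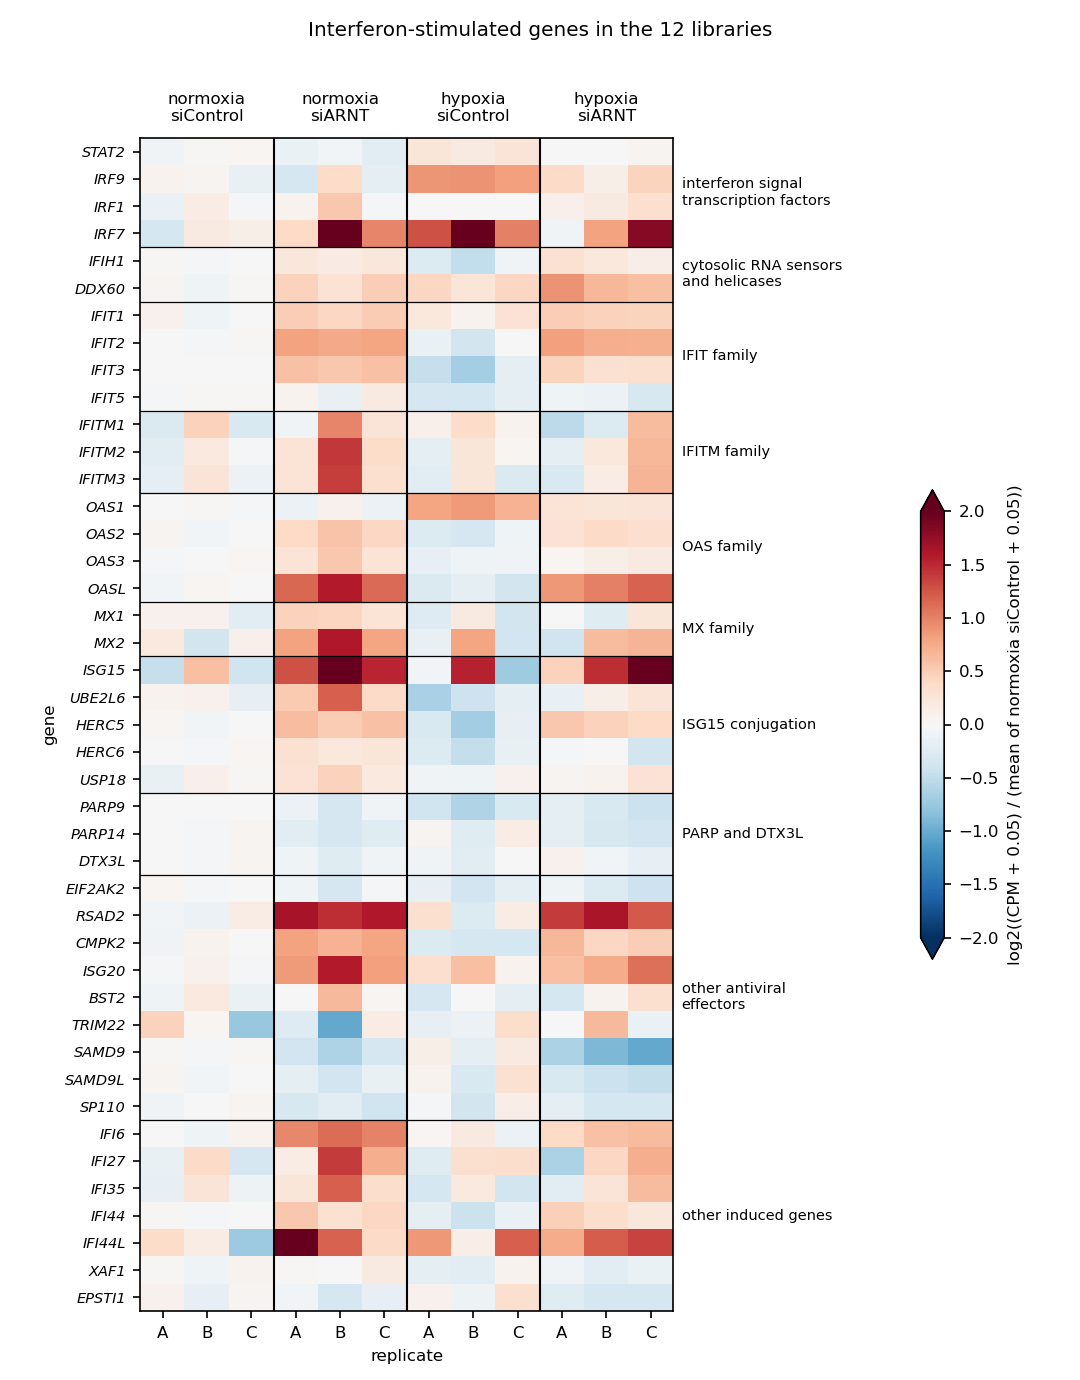
Log2 ratio of each gene's CPM to its mean in normoxia siControl, both with 0.05 CPM added (colour, capped at -2 and 2), for the 43 genes (rows, by role) in the 12 libraries (columns). The siARNT columns are red for IFIT1, IFIT2, IFIT3, OASL, RSAD2 and CMPK2, OAS1 and IRF9 are reddest in hypoxia siControl, and normoxia siARNT B holds the highest value of 17 genes.

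The GC content of the genes went with replicate B of normoxia siARNT. That library held the highest CPM of 17 of the 43 members, more than any other library (the next, normoxia siARNT A, held 8). Its CPM was above the mean of replicates A and C in 18 of 18 members with over 50% GC (median ratio 1.63, highest 5.71 for ISG15 at 63.4% GC) and in 4 of 25 at or under 50% GC (median ratio 0.92). IRF7 (66.8% GC), IFITM2 and IFITM3 (55.4% and 56.9%) and IFI35 (58.8%) had ratios of 3.18, 2.12, 2.13 and 1.88. The IFITM genes, whose products keep viruses from fusing with the cell, had log2 fold changes of 0.46, 0.79 and 0.76 with siARNT in normoxia, and none was called; without replicate B the values were 0.09, 0.32 and 0.29. IFITM2 and IFITM3 are near-identical, so reads that fit both may have been left out or counted for the wrong gene. In contrast, the changes of IFIT2, IFIT3, RSAD2, CMPK2, HERC5 and IFI44, all under 50% GC, were 0.79, 0.57, 1.63, 0.80, 0.59 and 0.46 without replicate B, against 0.79, 0.57, 1.59, 0.78, 0.57 and 0.42 with it. OASL moved from 1.31 to 1.13 without replicate B and remained called (adjusted p 4.31e-06). The GC slope was 0.002 and 0 in normoxia siARNT A and C, and -0.205, -0.036 and -0.172 in normoxia siControl A, B and C. Leaving out replicate B thus did not remove the whole GC difference between the groups. With the GC offset, IFIT2, IFIT3, RSAD2, CMPK2, HERC5 and IFI44 changed by 0.99, 0.76, 1.8, 0.85, 0.76 and 0.63, each more than without it. ISG15 and IRF7 changed by less, 2.1 and 0.67.

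**Figure D5:**
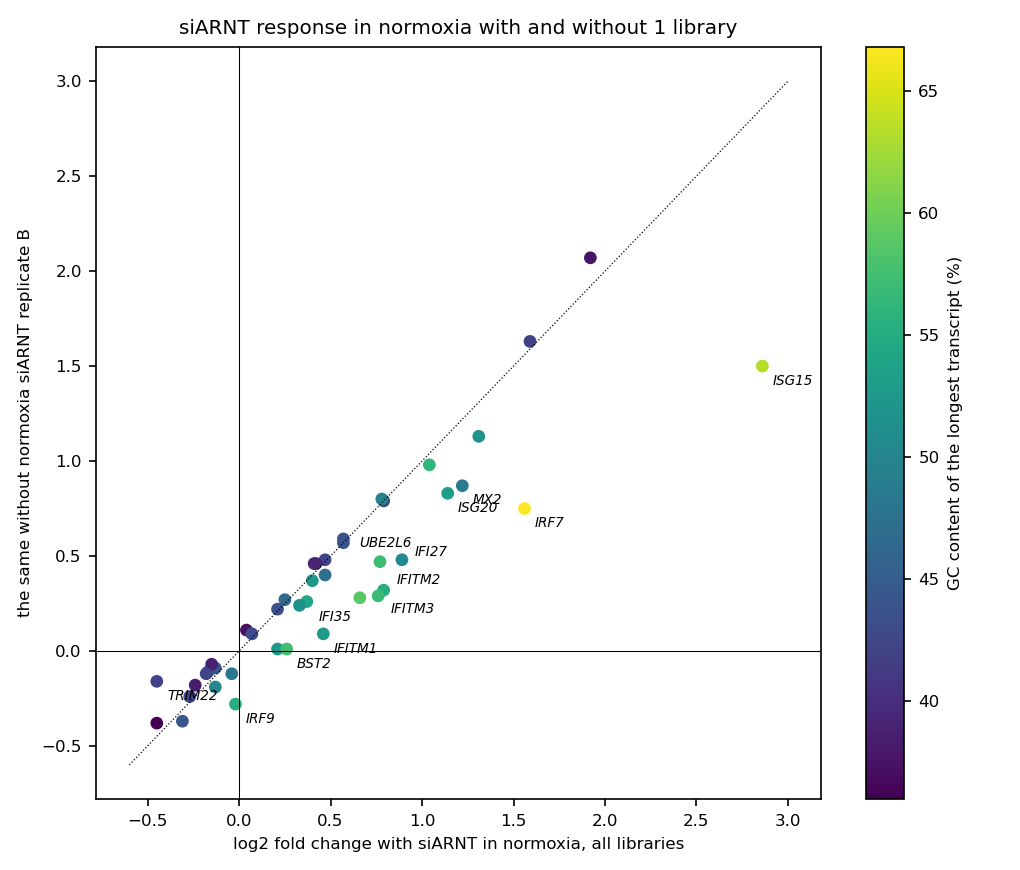
Log2 fold change with siARNT in normoxia for the 43 genes, with all libraries (horizontal axis) and without normoxia siARNT replicate B (vertical axis), coloured by the GC content of the longest transcript; the dotted line marks equal values. ISG15 (2.86 and 1.5) and IRF7 (1.56 and 0.75), which have the highest GC content, lie farthest below the line, and RSAD2 (1.59 and 1.63) lies on it.

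Low oxygen by itself moved fewer members, in both directions. In siControl, 8 of 43 were called, 4 higher (IRF9, STAT2, DDX60 and OAS1) and 4 lower (IFIT3, IFIT5, HERC5 and PARP9). That is 18.6% of the list against 25.3% of all genes (10.4% higher, 14.9% lower), and the median log2 fold change was -0.02, against 0.02 over all genes. Scaled by total counts, 4 were called higher and 9 lower. The groups did not overlap in 18 members, against 46.8% of all genes. The count was 5 without normoxia siControl A or without hypoxia siControl A, and 13 without normoxia siARNT B, which enters this comparison only through the shared estimate of the spread and the filter. In siARNT, 2 of 43 were called, OAS1 higher and IFI6 lower, or 4.65% against 4.09% of all genes (2.21% higher, 1.89% lower). Scaled by total counts, 2 were called, both higher. The list's median was -0.21, against -0.04 over all genes, and -0.10 against 0.01 without normoxia siARNT B. Groups did not overlap in 14 members, against 22.2% of all genes. Both calls were lost with only the samples compared, with no filter and with a block by transfected well. Leaving out normoxia siControl B, normoxia siARNT A or C, or any hypoxia siARNT library also lost both. Since hypoxia siControl serves both the hypoxia comparison and the siARNT comparison in hypoxia, opposite changes of 1 gene in the 2 (IRF9, STAT2, OAS1, IFIT3 and HERC5 had them) share those 3 libraries.

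No comparison called the other 17 members. They are IRF1 and IRF7, all 3 IFITM genes, both MX genes (GTPases that trap virus particles), HERC6 and USP18, DTX3L, EIF2AK2 (the kinase PKR, which stops translation when it binds double-stranded RNA), BST2 (which tethers budding virus), TRIM22, SP110, IFI27, IFI35 and XAF1. MX1, often used as a readout of interferon, went from 1.7 ± 0.201 to 2.24 ± 0.161 CPM with siARNT in normoxia (log2 fold change 0.40, SE 0.17, adjusted p 0.112) and from 1.55 ± 0.333 to 1.71 ± 0.297 CPM in hypoxia (adjusted p 0.612). MX2 had the lowest adjusted p of these in normoxia (log2 fold change 1.22, adjusted p 0.0527, and with the GC offset 1.31 and a call at 0.0215), at group means of 0.239 to 0.578 CPM. Without normoxia siARNT B its value was 0.87 (adjusted p 0.184). EIF2AK2 had group means of 192 to 229 CPM, with SP110 at 15.9 to 19.8 CPM and XAF1 at 4.12 to 4.76 CPM. TRIM22 stayed at or under 0.229 CPM on average in every group, where differences could hardly be seen at this depth.

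Of 39 other genes of the interferon pathway (ligands, receptors, kinases, inhibitors, other IRF factors and nucleic acid sensors), 38 matched an ID and 28 could be tested. Of the 9 interferon genes, only IFNE, an epithelial type I interferon, was measured well enough, and IFNB1 held 4 counts, IFNL1 5, IFNL2 7 and IFNL3 11 in all 12 libraries together, IFNA1, IFNA2, IFNG and IFNK none. IFNE was lower with siARNT in hypoxia, at 1.93 ± 0.614 against 3.4 ± 0.227 CPM (SD, n = 3; log2 fold change -0.81, adjusted p 0.0188). With siARNT, 6 of the 28 were called in normoxia (5 higher), 21.4% against 20.2% of all genes, and 14 in hypoxia (9 higher), 50% against 29.1%. IFNAR2, a chain of the type I receptor, was higher in both (log2 fold changes 0.39 and 0.54, adjusted p 0.00658 and 0.000391). So were the kinase JAK1 (0.22 and 0.35) and the feedback inhibitor SOCS3 (0.91 and 0.98), while IFNAR1, the other chain, was lower in hypoxia (-0.44, adjusted p 0.00214). RIGI, an RNA sensor that is itself induced by interferon, read higher after siARNT under hypoxia (0.47, adjusted p 0.00412). Hypoxia called 9 of the 28 in siControl, 6 of them higher (32.1% against 25.3% of all genes), and 1 in siARNT (3.57% against 4.09%), and the interaction called none (5 at an unadjusted p under 0.05).

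Splicing of the members was read from the deposited junction counts of exon skips and alternative splice sites. There were 91 such events in members, and 73 events in 23 members had enough reads, among 36022 events tested with limma. None was called in any comparison, where 0.0305% (low oxygen, siControl cells), 0.0472% (low oxygen, siARNT cells), 0.0222% (siARNT at normoxia), 0.0305% (siARNT at hypoxia) and 0.0389% (interaction) of all events were. At an unadjusted p under 0.05 there were 4, 9, 6, 3 and 4 member events in that order. The lowest adjusted p belonged to an alternative 3′ site of EIF2AK2 whose 2 forms differ by 20 bases. The form counted as inclusion made up 2.3%, 2.6% and 2.0% in hypoxia siARNT. It was at 0.8% in normoxia siControl A and 0% in the other 8 libraries, with a mean of 357.1 reads of both forms per library. The log2 ratio of inclusion to exclusion reads differed by 4.34 between hypoxia and normoxia in siARNT (SE 0.64, adjusted p 0.0836) and by 3.98 between siARNT and siControl in hypoxia (SE 0.64, adjusted p 0.13).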

How the data were processed

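AsPC-1 RNA was enriched for poly(A), made into stranded libraries and read from 1 end, per the labels' protocols. The authors deposited whole-number counts of reads per Ensembl gene ID and of reads on splice junctions. Trimmomatic, STAR 2.4.2a and GRCh38.p10 appear in the submitters' processing notes. The version and strand setting of the counter are not given in the sources used here, so reads of near-identical copies, overlapping genes and antisense genes may have been assigned otherwise than their names say.

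Symbols were paired with 51996 of 57820 IDs (99.35% of counts). Summary lines for unassigned reads (22.71% to 25.2%) were left out. Total counts were 38.526 to 84.337 M per library, and counting error is not the only error at this depth. edgeR 4.0.16 (R 4.3.3; TMM, filterByExpr, robust quasi-likelihood F test, 12 samples, 1 mean per group) gave log2 fold changes, SE and p-values adjusted by Benjamini-Hochberg over 16999 genes, with a call under 0.05. CPM are TMM-scaled. Splicing was tested with limma 3.58.1 on the log2 ratio of inclusion to exclusion reads, 0.5 added to each, for events with a mean of 20 reads per library and at least 5 in each. Both procedures were run on simulated data with known changes. Those data held no library skewed by GC content and no splicing events of very rare inclusion, so such cases were not tested.

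Alternatives were DESeq2 1.42.0 (its test and its size factors), total count scaling, no filter beyond 1 count, a GC offset, replicate blocks, fits of only the samples compared and each library left out in turn. GC content was known for 90.5% of genes. The members, lists and tests were chosen with earlier results of these data known. Values per sample are given for members called without overlap between groups (or called in the interaction), to at most 24, taken by adjusted p; IFIT5, PARP14, IRF7, the EIF2AK2 splice site and the other uncalled genes given with values fall outside this rule and were chosen after their values were seen. Transcript lengths were not used, so levels are not compared between genes. Some genes and sequences of the lists are not reported here.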

Additional observations from a re-analysis of the deposited data

Results flagged for a closer look

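The effect of siARNT on OAS1 depended on the oxygen level. The hypoxia change in siARNT minus the hypoxia change in siControl was -0.49 on the log2 scale (SE 0.09, adjusted p 0.0113, interaction term in edgeR's quasi-likelihood test). All 3 hypoxia siControl libraries lay above all 9 others.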

How the results depend on the processing

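Of 48 calls of single members, 32 held under every alternative run and 16 were lost under at least 1; of 968 recomputed values, 110 lost the call and 0 changed direction, and DESeq2 gave no adjusted p for 1 (IFI44L). The count for siARNT in hypoxia stayed within 1.5 times its value of 20 throughout (14 to 21 with a library left out). For siARNT in normoxia (17 called) it was 13 to 20 with a library left out and 26 with the replicate block and GC offset together (32.7% of all genes).

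For hypoxia in siControl (8 called), 13 were called with total count scaling, 14 with the GC offset (38.4% of all genes), 16 with the block and GC offset (40.3%), 13 with only the samples compared, and 5 to 13 with a library left out. For hypoxia in siARNT (2 called), 1 other member was called with no filter, and both main calls were lost there. The GC offset gave 11 (2 higher, 9 lower), where 18.2% of all genes were called, against 4.09%. The block with the GC offset gave 12 (2 higher, 10 lower), where 20.4% of all genes were called. The count was 0 with a block by transfected well, 0 with only the samples compared, and 0 to 2 with a library left out. The interaction (1 called) gave 6 with the GC offset (OAS1 -0.60, EPSTI1 -0.42, DDX60 -0.21, IFIT1 -0.37, SAMD9 -0.54 and IRF7 -1.43), where 13.4% of all genes were called and 6 of 43 is near that share, 5 with the block and GC offset (15.3% of all genes), and 1 with each library left out. The cause was not tested. No splicing event of a member was called under any alternative for siARNT in hypoxia.

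Replicate letters were not taken to pair the samples, since not every same-letter correlation of deviations was over 0.1. Those among the 3 groups other than hypoxia siARNT were 0.07 to 0.53; hypoxia siARNT gave 0.18 to 0.52 for A and -0.43 to -0.03 for B and C, and its replicate C correlated with the B libraries at 0.38, 0.63 and 0.49. With the replicate block, hypoxia called 11 members in siControl and 4 in siARNT, siARNT called 23 at normoxia and 20 at hypoxia, and the interaction called 1. At this depth, members with few reads (IFI44L, TRIM22, MX2) allow only large differences to be seen.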
